A study of Homo sapiens with 9 samples.

Results

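The expression of 48 interferon-stimulated and RNA-sensing genes was followed in H1299 cells, an established human lung cancer line, after depletion of FIBP. The genes were taken as a list of symbols covering sensors of double-stranded RNA, interferon regulatory factors, the ISG15 conjugation system, IFIT proteins, membrane restriction factors, other antiviral effectors, TRIM proteins, the PARP9 complex and other interferon-induced genes, and each symbol matched 1 of 60966 genes in the transcript tables. RNA-seq was performed on 9 samples in 3 groups of 3, transfected for 48 h with a scrambled control siRNA named Scramble or with 1 of the siRNAs against FIBP, Si-FIBP#1 and Si-FIBP#2, at a concentration given as 100 nM in the study's methods. All groups therefore carried a transfected double-stranded siRNA, and a group without transfection was not analysed here. Each group held 3 samples of the same line, in ordinary culture medium, with no interferon or radiation named in the labels. The titles number the samples as replicates and do not say whether they were separate transfections. The study used these profiles to look for genes downstream of FIBP, a protein it links to the transcription factor STAT3. In bulk RNA, fewer cells expressing a gene and less of its RNA per cell cannot be told apart.

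The interferon system is the first antiviral defence of most human cells. RNA that looks foreign, above all long double-stranded RNA in the cytoplasm, is bound by sensors such as RIG-I and MDA5, which signal through the adaptor MAVS and the transcription factors IRF3 and IRF7 to switch on the interferon genes. Secreted interferon then acts on its receptors, and a complex that includes STAT2 and IRF9 binds interferon-stimulated response elements in front of the interferon-stimulated genes, whose products degrade viral RNA, block entry or translation, or modify other proteins. Many of these genes also keep a basal level in cells that were never exposed to interferon, tumour lines included.

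The targeted gene was examined first. FIBP (ENSG00000172500, chromosome 11, 65883741 to 65888539, minus strand, GRCh38) stood at 88.4, 79.5 and 77.7 FPKM in Scramble samples, 7.49, 7.77 and 4.30 FPKM after Si-FIBP#1 and 7.13, 5.92 and 8.21 FPKM after Si-FIBP#2, where FPKM are sequenced fragments per kilobase of transcript, scaled to the size of the library. All 6 depleted samples lay far below the 3 Scramble samples. The fall on the log2(FPKM + 1) scale was -3.50 ± 0.18 after Si-FIBP#1 and -3.37 ± 0.18 after Si-FIBP#2 (SE; adjusted p = 9.4e-07 and 1.42e-06; limma with Benjamini-Hochberg adjustment over 14985 genes). The same test gave every adjusted p below, except those of alternative fits, which can hold other sets of genes. The estimated depth was 20150000 to 24100000 fragments per library, and the number of genes at 1 FPKM or more was 13894 to 14124 in Scramble, 14406 to 14587 after Si-FIBP#1 and 14662 to 14715 after Si-FIBP#2. The 10 most abundant genes held 11.4% to 11.6%, 14.9% to 15.1% and 12.9% to 13.4% of the FPKM in the same order, so on both measures the 3 groups did not overlap, and the part of this in the results that follow was not tested. Of 9 immune cell markers, 8 stayed at or below 0.41 FPKM in every sample, CD3E and CLEC4C were listed at 0, and the summed level of the list was 31.9 to 33.6 FPKM in Scramble, 38.0 to 41.0 FPKM after Si-FIBP#1 and 51.1 to 67.6 FPKM after Si-FIBP#2. Nearly all of that sum was CD68, a lysosomal protein that non-immune cells also make. Markers of the line's own cell type also moved with both siRNAs. The epithelial keratin KRT18 fell from 476 ± 8.30 FPKM to 209 ± 16.4 and 175 ± 28.4 FPKM (SD, n = 3; -1.19 and -1.45 on the log2 scale, adjusted p = 2.01e-05 and 6.88e-06), KRT8 fell (-0.53 and -0.49, adjusted p = 0.000335 and 0.000542), the mesenchymal VIM fell (-0.49 and -0.72, adjusted p = 0.00512 and 0.000572) and CDH2 rose (0.35 and 0.43, adjusted p = 0.00138 and 0.000426). Of the other markers, CDH1 was listed at 0 and all 4 lung lineage markers and all 3 endothelial markers stayed under 1 FPKM, as did KRT19, EPCAM and PDGFRB, while COL1A1 reached 1 FPKM in 2 depleted samples.

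The list holds 25 genes whose promoter carries the core of an interferon-stimulated response element, GAAANNGAAA on either strand, of the 38 whose promoter window could be read (65.8%). The windows span 250 bases before to 50 bases after the annotated start (RefSeq, GRCh38.p14), and 4.38% of all 27305 genes with such windows have a match. The 10 stretches of 30 bases that follow are shown because they hold the matches (in capitals) of the 2 genes that rose most with both siRNAs (LGALS3BP and IFI44), of further genes that rose (DTX3L, PARP14, SAMD9, ISG15), of 1 that differed between the siRNAs (IFITM3), of 1 that fell (OAS3) and of 2 that stayed at or below 0.25 FPKM in every sample (BST2, RSAD2). Each is written 5′ to 3′ on the strand of its gene, and TTTC instead of GAAA means that the element lies on the other strand.
LGALS3BP: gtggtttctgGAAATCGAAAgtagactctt
IFI44: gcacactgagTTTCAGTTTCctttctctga
DTX3L: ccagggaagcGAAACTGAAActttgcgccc
PARP14: tccaggaaacGAAAGCGAAAgagtcaaagt
SAMD9: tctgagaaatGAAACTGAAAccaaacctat
ISG15: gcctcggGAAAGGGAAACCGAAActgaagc
IFITM3: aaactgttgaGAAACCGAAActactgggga
OAS3: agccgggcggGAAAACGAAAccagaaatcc
BST2: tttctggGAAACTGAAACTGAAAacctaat
RSAD2: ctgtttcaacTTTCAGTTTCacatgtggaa

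In GRCh38.p14 these stretches lie at chr17:78979962-78979991 (minus strand), chr1:78649761-78649790 (plus), chr3:122564322-122564351 (plus), chr3:122680800-122680829 (plus), chr7:93118096-93118125 (minus), chr1:1013377-1013406 (plus), chr11:320876-320905 (minus), chr12:112938452-112938481 (plus), chr19:17405738-17405767 (minus) and chr2:6877622-6877651 (plus). Counted from the annotated start, the nearest matches began at positions from -145 to -6. The DTX3L match occupies the same 10 bases as that of PARP9, which is transcribed in the opposite direction, so both genes share 1 element. In ISG15 and in BST2, 2 matches overlap. A match is a description of the sequence and does not show that a factor was bound.

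In Scramble cells most of these genes were on, at moderate levels. Of the 48 genes, 11 had a mean of at least 10 FPKM, 22 lay from 1 to under 10 FPKM and 15 were under 1 FPKM. IFITM3, a membrane protein that blocks the entry of enveloped viruses, was the most abundant at 182 ± 14.0 FPKM (SD, n = 3), followed by the ubiquitin-like modifier ISG15 at 87.7 ± 3.95 FPKM and the transcription factor IRF3 at 59.9 ± 4.97 FPKM. IFITM3 alone made up 29% to 30.5% of the summed FPKM of the 48 genes in Scramble, 30.3% to 33.2% after Si-FIBP#1 and 23.7% to 25.5% after Si-FIBP#2. The median Scramble level of the 33 genes that could be tested was 6.61 FPKM, against 10.03 FPKM for all 14985 genes tested.

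**Figure D1:**
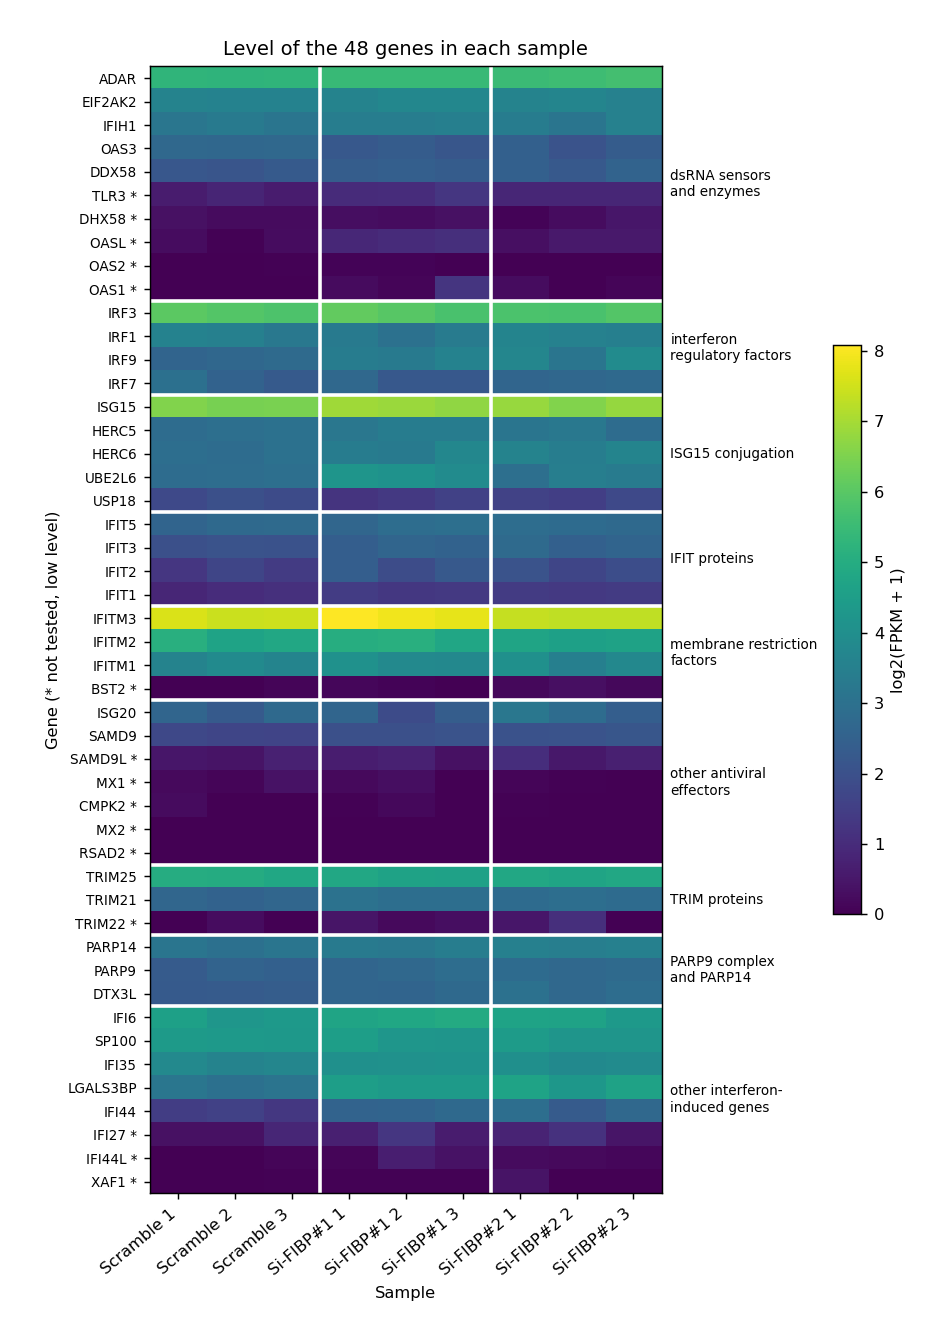
The level of each of the 48 genes (rows, grouped by role and ordered by Scramble level) in each of the 9 samples (columns), as log2(FPKM + 1), with an asterisk on the 15 genes too low to test. IFITM3, ISG15 and IRF3 are the brightest rows, and the OAS1, OAS2, MX1, MX2 and RSAD2 rows stay dark in nearly every sample.

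The 15 genes too low to test include classical genes of a strong interferon response. Among them 9 stayed under 1 FPKM in all 9 samples, namely the helicase DHX58, the RNA-activated synthetase OAS2, the tetherin gene BST2, the dynamin-like GTPases MX1 and MX2, the nucleotide-modifying enzyme RSAD2 (viperin), its genomic neighbour CMPK2, IFI44L and XAF1. MX2 and RSAD2 were listed at 0 in every sample. The other 6 (TLR3, OAS1, OASL, SAMD9L, TRIM22 and IFI27) reached 1 FPKM in 1 or 2 samples only, with a highest value of 1.44 FPKM for TLR3.

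Genes entered the test if they reached 1 FPKM in at least 3 of the 9 samples, and 33 of the 48 did. Of these 33, 32 were at 1 FPKM or more in all 3 Scramble samples. The exception was IFIT1, which had 2 of 3 and so met the filter only with its depleted samples. After Si-FIBP#1, 19 of the 33 genes were higher than in Scramble at an adjusted p below 0.05 (57.6%, against 27.8% of all genes tested) and 2 were lower (6.06%, against 19.9%). After Si-FIBP#2, 14 were higher (42.4%, against 31.1% of all genes) and 1 was lower (3.03%, against 17.7%). Without IFIT1 the counts higher were 18 and 13 of 32 (56.2% and 40.6%), against 27.3% and 30.6% of the 13186 genes at 1 FPKM or more in all 3 Scramble samples. The median log2 fold change of the 33 genes was 0.29 after Si-FIBP#1 and 0.23 after Si-FIBP#2, and that of all genes tested was 0.07 and 0.11.

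Most of these differences were small. A fold change over 2 was passed by 3 genes after Si-FIBP#1 (LGALS3BP, IFI44 and UBE2L6) and by 2 after Si-FIBP#2 (LGALS3BP and IFI44), all upward, while 2.55% and 2.92% of all genes passed it upward and 3.11% and 2.13% downward. Fold changes were taken after adding 1 to the FPKM, so those of genes near 1 FPKM come out smaller than the ratio of their means. The scaling mattered for Si-FIBP#2. When median ratios between samples set the scale instead, which brings the median change of all genes from 0.11 to 0.005, 9 genes remained higher and 4 were lower (IFITM2, IFITM3, OAS3 and TRIM25), and after Si-FIBP#1 the counts became 14 and 3. Under that scaling 22.3% of all genes were higher and 24.5% lower after Si-FIBP#2, beside 27.3% and 12.1% of the 33, and 22.5% and 24.1% after Si-FIBP#1, beside 42.4% and 9.09%.

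**Figure D2:**
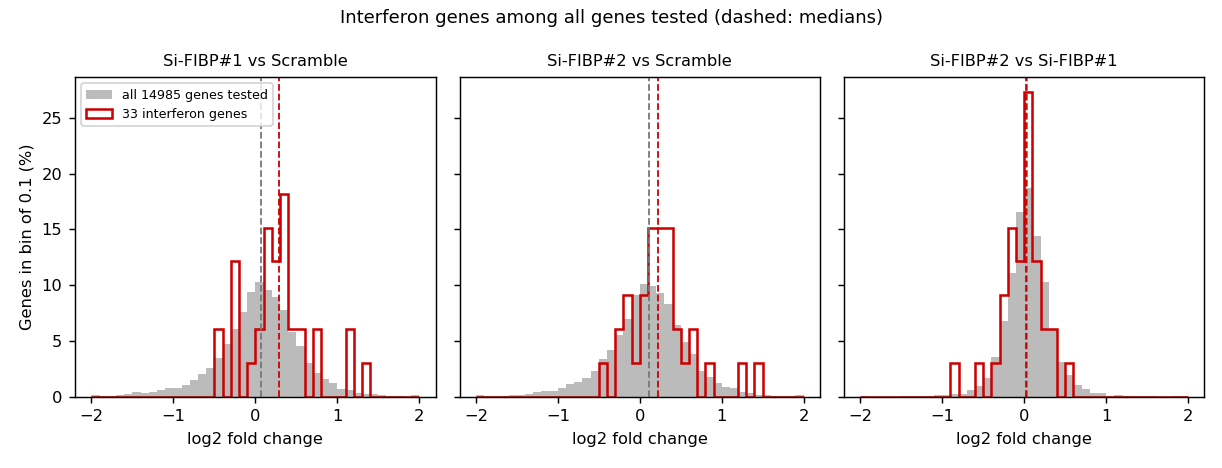
Distribution of log2 fold changes in bins of 0.1 (x axis) as a percentage of genes (y axis), for all 14985 genes tested (grey) and the 33 interferon genes (red outline), with dashed lines at the medians. The medians of the 33 genes lie at 0.29, 0.23 and 0.02 in the 3 comparisons, beside 0.07, 0.11 and 0.04 for all genes, and genes beyond 2 in either direction are drawn in the outermost bins.

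Both comparisons share the 3 Scramble samples, so their counts are not independent of each other. The genes higher with both siRNAs were 14 of the 33 (42.4%, against 21.8% of all genes tested) and, leaving out IFIT1, 13 of the 32 at 1 FPKM or more in all 3 Scramble samples (40.6%, against 21.5% of the 13186 such genes). They were ADAR, DTX3L, HERC6, IFI35, IFI44, IFIT1, IFIT3, IRF9, ISG15, LGALS3BP, PARP14, PARP9, SAMD9 and TRIM21. A further 5 passed as higher after Si-FIBP#1 only (HERC5, IFI6, IFIT2, IFITM3 and UBE2L6). OAS3 was lower with both (3.03% of the 33, against 13.7% of all genes tested) and USP18 passed as lower after Si-FIBP#1 only. The other 12 passed with neither siRNA (DDX58, EIF2AK2, IFIH1, IFIT5, IFITM1, IFITM2, IRF1, IRF3, IRF7, ISG20, SP100 and TRIM25). The shares of all genes that passed with 1 siRNA only or with neither were not computed. Under the median ratio scaling only DTX3L, HERC6, IFI44, IFIT3, IRF9 and LGALS3BP passed as higher with both siRNAs. The share of all genes higher with both was not computed for that scaling. Of the 14 genes higher with both, 11 had their lowest Si-FIBP#2 value in replicate 2, a sample that was the lowest of its group for 33.4% of all genes tested. The count of 14 genes higher after Si-FIBP#2 became 10 without its replicate 1, 16 without replicate 2 and 9 without replicate 3. The share of all genes was not computed for these fits.

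**Figure D3:**
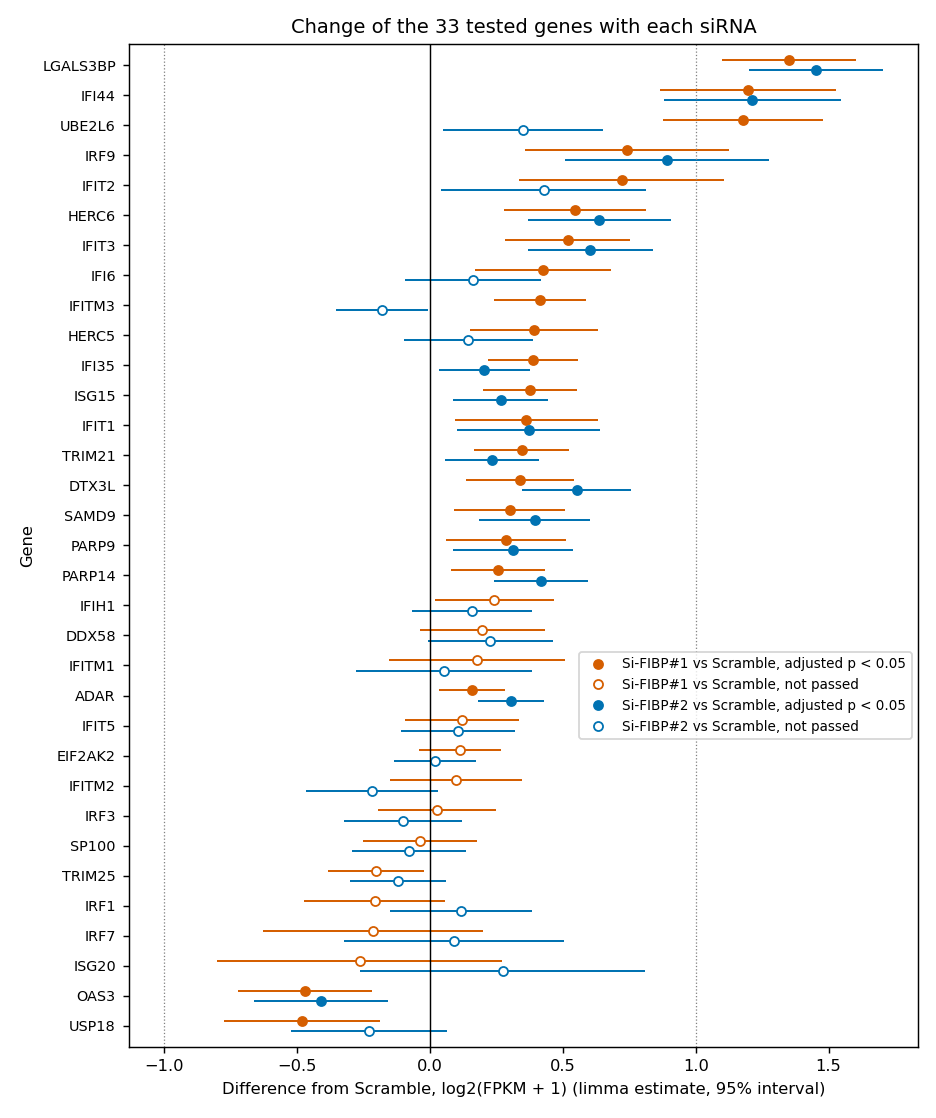
Difference from Scramble on the log2(FPKM + 1) scale (x axis) for the 33 tested genes (rows, ordered by Si-FIBP#1), with 95% intervals, for Si-FIBP#1 (orange) and Si-FIBP#2 (blue), filled where the adjusted p is below 0.05. LGALS3BP and IFI44 lie past 1 with both siRNAs, UBE2L6 after Si-FIBP#1 only, and OAS3 lies below 0 with both.

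Among the sensors and enzymes of double-stranded RNA, 5 of 10 could be tested, and with each siRNA 1 was higher and 1 was lower, a share of 20% for each direction that is not above that of all genes for higher calls (27.8% and 31.1%) and near it for lower ones (19.9% and 17.7%). ADAR, which edits adenosine to inosine in double-stranded RNA and so keeps the cell's own RNA from being sensed, was at 38.0, 37.0 and 38.4 FPKM in Scramble samples, 42.2, 42.4 and 42.3 FPKM after Si-FIBP#1 and 44.2, 46.4 and 50.3 FPKM after Si-FIBP#2. The Si-FIBP#1 samples lay just above the Scramble samples and the Si-FIBP#2 samples above both. The log2 fold change was 0.16 ± 0.06 (SE, adjusted p = 0.0407) after Si-FIBP#1 and 0.31 ± 0.06 (SE, adjusted p = 0.00157) after Si-FIBP#2, and the first was lost when any 1 of the Scramble or Si-FIBP#1 samples was left out and under the TPM and median ratio scalings. Its most abundant single transcript, ENST00000368471, went from 6.25 to 8.21 and 9.02 FPKM on average, and held 16.5% of the gene's FPKM in Scramble. The transcript ENST00000649042 went from 3.71 to 4.63 and 5.72 FPKM, while ENST00000368474 moved little, from 4.67 to 4.86 and 5.27 FPKM. Which protein form of ADAR rose was not tested.

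OAS3, a synthetase that makes the 2-5A messenger on double-stranded RNA, moved the other way. It was at 5.58, 5.54 and 5.58 FPKM in Scramble samples, 3.72, 4.06 and 3.44 FPKM after Si-FIBP#1 and 4.55, 3.21 and 4.14 FPKM after Si-FIBP#2. The Scramble samples agreed closely and all 6 depleted samples lay below them. Its log2 fold change was -0.47 ± 0.11 (SE, adjusted p = 0.00673) after Si-FIBP#1 and -0.41 ± 0.11 (SE, adjusted p = 0.0129) after Si-FIBP#2. The main OAS3 transcript, ENST00000228928, fell less after Si-FIBP#2, from 3.94 to 2.43 FPKM after Si-FIBP#1 and 3.27 FPKM after Si-FIBP#2. The 998-nt transcript ENST00000551007 went from 1.20 to 0.41 and 0.39 FPKM. The cytoplasmic sensors themselves did not pass the test. DDX58 (RIG-I) had a mean of 3.62 ± 0.28 FPKM in Scramble, 4.28 ± 0.20 FPKM after Si-FIBP#1 and 4.42 ± 0.61 FPKM after Si-FIBP#2 (SD, n = 3), with 95% intervals of the log2 change of -0.04 to 0.43 and -0.01 to 0.46. IFIH1 (MDA5) went from 8.22 ± 0.52 FPKM to 9.90 ± 0.33 and 9.34 ± 1.38 FPKM, with intervals of 0.02 to 0.47 and -0.07 to 0.38. EIF2AK2 (PKR), the kinase that stops translation on double-stranded RNA, had the narrowest intervals of the 3, -0.04 to 0.27 and -0.14 to 0.17, around a Scramble level of 11.1 ± 0.24 FPKM.

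The RNA-sensing genes too low to test were DHX58 (at most 0.40 FPKM), TLR3, OAS1, OAS2 and OASL. OASL, a catalytically inactive relative of the OAS enzymes, was at 0.21, 0.04 and 0.20 FPKM in Scramble samples, 0.85, 1.00 and 1.13 FPKM after Si-FIBP#1 and 0.25, 0.46 and 0.47 FPKM after Si-FIBP#2. All 3 Si-FIBP#1 samples lay above all others, on an estimated 3 to 47 fragments per library. With no filter on low values its log2 change was 0.80 ± 0.10 (SE) after Si-FIBP#1 and 0.28 ± 0.10 (SE) after Si-FIBP#2. Si-FIBP#2 was lower than Si-FIBP#1 by 0.52. OASL and TLR3 were picked after their values were seen, so their changes are given as a description with no test. TLR3, the endosomal sensor of double-stranded RNA, was at 0.53, 0.78 and 0.52 FPKM in Scramble samples, 0.99, 1.04 and 1.44 FPKM after Si-FIBP#1 and 0.84, 0.81 and 0.81 FPKM after Si-FIBP#2. With no filter its log2 change was 0.42 ± 0.12 (SE) after Si-FIBP#1 and 0.18 ± 0.12 (SE) after Si-FIBP#2. The difference between the siRNAs was -0.24. BST2, also untested, had no value over 0.25 FPKM. OAS1 was listed at 0 in all 3 Scramble samples and reached 1.35 FPKM in Si-FIBP#1 replicate 3 only.

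Of the 4 interferon regulatory factors, IRF9 rose with both siRNAs and the other 3 did not pass, a share of 25% that is not above that of all genes (27.8% and 31.1%). IRF9, the DNA-binding subunit of the complex with STAT2, was at 5.10, 5.45 and 5.86 FPKM in Scramble samples, 9.60, 8.84 and 11.1 FPKM after Si-FIBP#1 and 11.9, 7.87 and 14.0 FPKM after Si-FIBP#2. All 6 depleted samples lay above the Scramble samples, though Si-FIBP#2 replicate 2 was well below its fellows. The mean was 1.80 and 2.06 times that of Scramble, a log2 fold change of 0.74 ± 0.17 (SE, adjusted p = 0.00578) after Si-FIBP#1 and 0.89 ± 0.17 (SE, adjusted p = 0.00204) after Si-FIBP#2. The main transcript ENST00000396864 carried much of this, and an overlapping annotated gene on the same strand, AL136295.5, was at 2.0 FPKM on average, so the division of fragments between them is uncertain.

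IRF3, the constitutive factor downstream of the RNA sensors, was at 65.0, 59.6 and 55.1 FPKM in Scramble samples, 69.3, 61.6 and 52.8 FPKM after Si-FIBP#1 and 54.8, 52.8 and 59.4 FPKM after Si-FIBP#2. The 3 groups overlapped, and the 95% intervals of its log2 change were -0.20 to 0.25 and -0.33 to 0.12. IRF1 (Scramble 9.93 ± 1.37 FPKM) and IRF7 (Scramble 5.20 ± 1.54 FPKM), which are themselves interferon-induced, had intervals from -0.47 to 0.06 and -0.15 to 0.38 for IRF1 and from -0.63 to 0.20 and -0.32 to 0.50 for IRF7. The wide intervals of IRF7 do not show that it was unaffected.

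ISG15 is conjugated to other proteins by a dedicated cascade, and all 5 of its genes on the list were tested. After Si-FIBP#1, 4 rose and USP18, which removes ISG15, fell. After Si-FIBP#2, 2 rose and 3 did not pass. For all genes the shares higher were 27.8% and 31.1%, so the 2 of 5 after Si-FIBP#2 lie near the background. The share lower after Si-FIBP#1, 20%, lies near the 19.9% of all genes. ISG15 itself was at 92.1, 84.5 and 86.5 FPKM in Scramble samples, 120.3, 115 and 107 FPKM after Si-FIBP#1 and 113, 93.1 and 111 FPKM after Si-FIBP#2. Every depleted sample was above the Scramble range, Si-FIBP#2 replicate 2 only just. Its log2 fold change was 0.38 ± 0.08 (SE, adjusted p = 0.00357) after Si-FIBP#1 and 0.27 ± 0.08 (SE, adjusted p = 0.0201) after Si-FIBP#2, and the second was lost under the median ratio scaling, with no filter on low values and without any 1 of 4 samples (Scramble replicates 2 and 3, Si-FIBP#2 replicates 1 and 3), its adjusted p ranging from 0.00165 to 0.187 over the alternatives.

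UBE2L6, the conjugating enzyme for ISG15, had the largest log2 difference between the siRNAs among the 33 genes. It was at 6.28, 6.39 and 6.70 FPKM in Scramble samples, 17.7, 16.3 and 13.9 FPKM after Si-FIBP#1 and 6.68, 9.97 and 9.17 FPKM after Si-FIBP#2. After Si-FIBP#1 it was over 2-fold above the Scramble samples, while Si-FIBP#2 replicate 1 fell inside the Scramble range. The log2 fold change was 1.18 ± 0.13 (SE, adjusted p = 9.19e-05) after Si-FIBP#1 and 0.35 ± 0.13 (SE, adjusted p = 0.054) after Si-FIBP#2. The difference of Si-FIBP#2 from Si-FIBP#1 was -0.83 ± 0.13 (SE, adjusted p = 0.00404). One transcript, ENST00000287156, held nearly all of the gene's FPKM.

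HERC6, a relative of the ISG15 ligase HERC5, was at 6.53, 6.21 and 7.10 FPKM in Scramble samples, 9.45, 8.85 and 12.3 FPKM after Si-FIBP#1 and 11.3, 9.64 and 11.6 FPKM after Si-FIBP#2. Its lowest depleted value was above its highest Scramble value, and the log2 fold change was 0.55 ± 0.12 (SE, adjusted p = 0.00443) after Si-FIBP#1 and 0.64 ± 0.12 (SE, adjusted p = 0.00183) after Si-FIBP#2. HERC5, the main ligase for ISG15 in human cells, was at 6.23, 6.81 and 7.0 FPKM in Scramble samples, 8.18, 9.49 and 9.57 FPKM after Si-FIBP#1 and 7.78, 8.48 and 6.32 FPKM after Si-FIBP#2. The Si-FIBP#1 samples were above Scramble (0.39 ± 0.11 (SE, adjusted p = 0.0142)), the Si-FIBP#2 samples overlapped it (0.14 ± 0.11 (SE, adjusted p = 0.3)), and without Si-FIBP#1 replicate 2 the first had an adjusted p of 0.0507. USP18, which also dampens signalling at the interferon receptor, was at 2.41, 2.89 and 2.62 FPKM in Scramble samples, 1.32, 1.55 and 1.98 FPKM after Si-FIBP#1 and 2.04, 1.85 and 2.44 FPKM after Si-FIBP#2. After Si-FIBP#1 all 3 samples lay below Scramble and after Si-FIBP#2 they overlapped it, at log2 changes of -0.48 ± 0.13 (SE, adjusted p = 0.0133) and -0.23 ± 0.13 (SE, adjusted p = 0.177) on an estimated 50 to 103 fragments per library. The first was lost without Scramble replicate 2 (adjusted p = 0.0518).

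**Figure D4:**
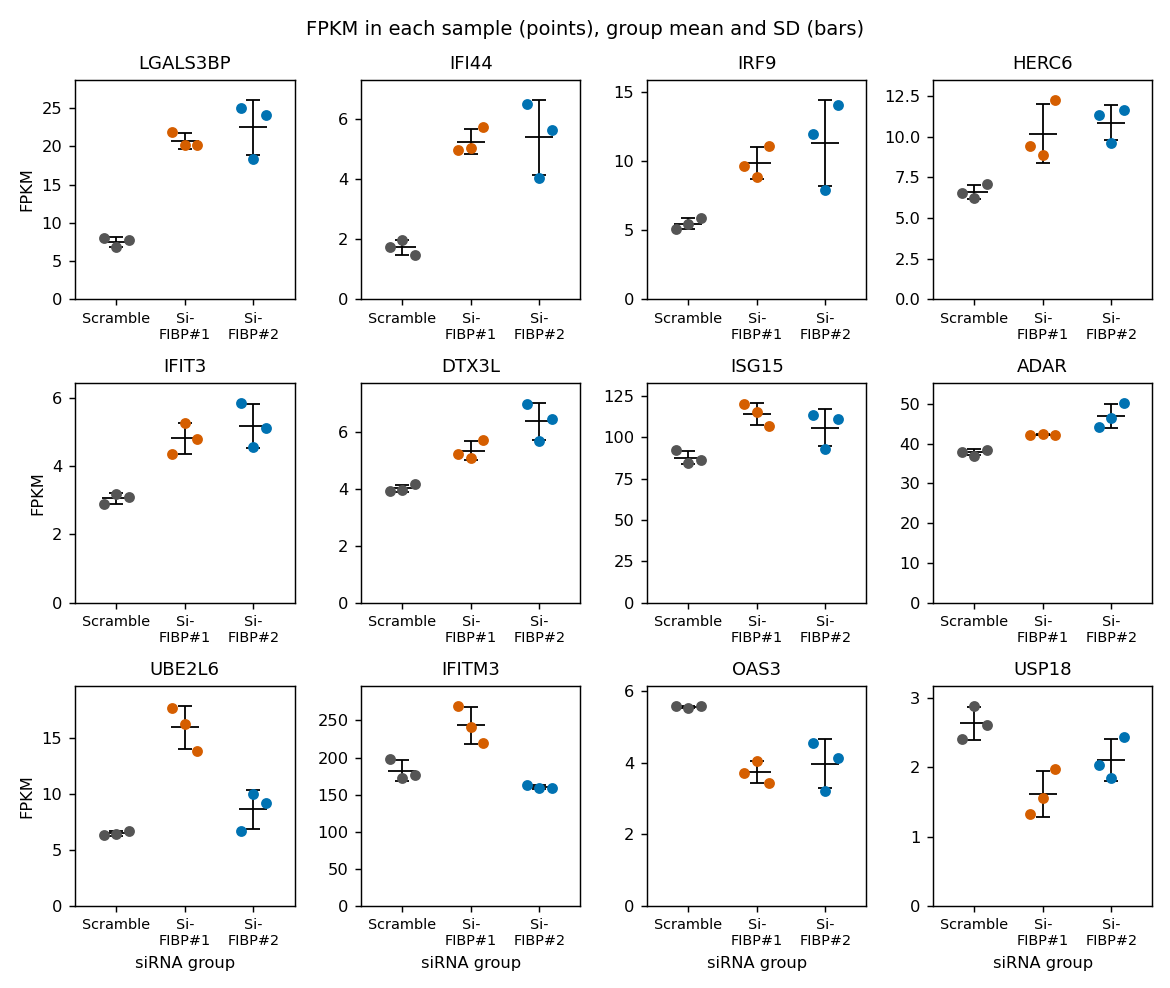
FPKM of 12 of the genes (y axes, each from 0) in every sample, by siRNA group (x axis), with black bars for the group mean and SD (n = 3). The depleted samples of LGALS3BP, IFI44, IRF9, HERC6, IFIT3, DTX3L, ISG15 and ADAR all sit above the Scramble samples and those of OAS3 below, whereas UBE2L6 and IFITM3 are high after Si-FIBP#1 and lower after Si-FIBP#2.

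The 4 IFIT genes, whose products bind viral RNA ends and hinder translation, lie side by side on chromosome 10, and all had a positive log2 change with both siRNAs. Beside IFIT1, IFIT2 and IFIT3 were called higher after Si-FIBP#1 and IFIT3 after Si-FIBP#2, where 27.8% and 31.1% of all genes were called higher and 8610 and 9155 of the 14985 had a positive change. IFIT3 was at 2.89, 3.19 and 3.09 FPKM in Scramble samples, 4.37, 5.28 and 4.80 FPKM after Si-FIBP#1 and 5.86, 4.57 and 5.11 FPKM after Si-FIBP#2. The depleted samples were all above Scramble, with a log2 change of 0.52 ± 0.10 (SE, adjusted p = 0.0028) and 0.60 ± 0.10 (SE, adjusted p = 0.00115) for Si-FIBP#1 and Si-FIBP#2. IFIT1 was at 0.82, 1.05 and 1.19 FPKM in Scramble samples, 1.72, 1.49 and 1.56 FPKM after Si-FIBP#1 and 1.65, 1.53 and 1.64 FPKM after Si-FIBP#2. It was just detectable in Scramble and above it in all 6 depleted samples, on an estimated 72 to 167 fragments per library, with log2 changes of 0.36 and 0.37, given as a description because it met the filter only with its depleted samples. Its place among the genes called higher was lost under 8 of 16 alternatives after Si-FIBP#1, among them without Scramble replicate 1 or 2 or any 1 of the Si-FIBP#1 samples, and under 7 of 16 after Si-FIBP#2, among them without Scramble replicate 1 or 2 or Si-FIBP#2 replicate 1 or 3.

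IFIT2 was at 1.44, 2.21 and 1.65 FPKM in Scramble samples, 4.34, 2.64 and 3.78 FPKM after Si-FIBP#1 and 3.16, 2.21 and 2.78 FPKM after Si-FIBP#2. The Si-FIBP#1 samples were all above Scramble, while Si-FIBP#2 replicate 2 equalled the highest Scramble value. Its log2 change was 0.72 ± 0.17 (SE, adjusted p = 0.00687) after Si-FIBP#1 and 0.43 ± 0.17 (SE, adjusted p = 0.0648) after Si-FIBP#2. IFIT5, the most abundant of the 4 in Scramble at 5.59 ± 0.46 FPKM, did not pass, with 95% intervals of -0.09 to 0.33 and -0.11 to 0.32. IFIT1, IFIT2 and IFIT3 lie inside the annotated span of LIPA, a lysosomal lipase gene on the opposite strand that rose from 28.9 FPKM in Scramble to 68.8 FPKM after Si-FIBP#1 and 70.7 FPKM after Si-FIBP#2. The 5 annotated LIPA transcripts that reach an IFIT gene summed to at most 0.60 FPKM in any sample, and its main transcript ends before these genes. An assembled LIPA transcript at 0.62 to 1.81 FPKM has no span in the annotation, so whether it reaches an IFIT gene is not known. Whether the strand was used in counting is not given in the sources used here.

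The membrane restriction factors were led by IFITM3, which was at 198, 172 and 177 FPKM in Scramble samples, 269.7, 241 and 219 FPKM after Si-FIBP#1 and 163, 159 and 159 FPKM after Si-FIBP#2. The Si-FIBP#1 samples were all above the Scramble samples, and the Si-FIBP#2 samples were all below them. After Si-FIBP#1 the log2 fold change was 0.41 ± 0.08 (SE, adjusted p = 0.0018). After Si-FIBP#2 it was -0.18 ± 0.08 (SE, adjusted p = 0.0786), with a 95% interval of -0.35 to -0.01. It passed as lower there under the median ratio scaling and with the replicate number as a block in the fit. The difference of Si-FIBP#2 from Si-FIBP#1 was -0.59 ± 0.08 (SE, adjusted p = 0.00155). IFITM1 (Scramble 12.2 ± 1.32 FPKM) and IFITM2 (Scramble 28.6 ± 4.23 FPKM) did not pass, with intervals after Si-FIBP#1 of -0.16 to 0.51 and -0.15 to 0.35 and after Si-FIBP#2 of -0.28 to 0.38 and -0.47 to 0.03. Under the median ratio scaling IFITM2 passed as lower after Si-FIBP#2. The 3 genes are near-identical neighbours on chromosome 11, IFITM1 lies within the annotated span of IFITM2 and most of its FPKM came from an assembled transcript, so their separate values are less certain than those of single-copy genes.

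Of 7 other antiviral effectors only SAMD9 and ISG20 could be tested. SAMD9, a cytoplasmic factor that restricts poxviruses, was at 2.38, 2.20 and 2.18 FPKM in Scramble samples, 2.93, 2.89 and 3.19 FPKM after Si-FIBP#1 and 3.12, 3.21 and 3.49 FPKM after Si-FIBP#2. All 6 depleted samples lay above the Scramble samples, and the log2 change was 0.30 ± 0.09 (SE, adjusted p = 0.0239) after Si-FIBP#1 and 0.39 ± 0.09 (SE, adjusted p = 0.00628) after Si-FIBP#2. The first was lost under 5 of 16 alternatives (median ratio scaling, no filter, and without Scramble replicate 2 or 3 or Si-FIBP#1 replicate 3), with an adjusted p of up to 0.0742. Its neighbour SAMD9L stayed between 0.29 and 1.07 FPKM. ISG20, a 3′ exonuclease, was at 4.93 ± 0.96 FPKM in Scramble, 4.01 ± 1.31 FPKM after Si-FIBP#1 and 6.28 ± 1.95 FPKM after Si-FIBP#2, with overlapping groups and 95% intervals of -0.80 to 0.27 and -0.26 to 0.81.

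Among the TRIM proteins, TRIM21, a cytoplasmic antibody receptor and ubiquitin ligase, rose with both siRNAs, from 5.15 ± 0.27 FPKM to 6.81 ± 0.42 FPKM after Si-FIBP#1 and 6.22 ± 0.26 FPKM after Si-FIBP#2 (SD, n = 3). Its log2 change was 0.34 ± 0.08 (SE, adjusted p = 0.00561) and 0.23 ± 0.08 (SE, adjusted p = 0.0347), and the second was lost under 10 of 17 alternatives. TRIM25, the ligase that activates RIG-I, was at 29.3 ± 2.14, 25.4 ± 2.26 and 26.9 ± 1.48 FPKM in the 3 groups and did not pass, at -0.20 ± 0.08 (SE, adjusted p = 0.0633) and -0.12 ± 0.08 (SE, adjusted p = 0.244). After Si-FIBP#1 it passed as lower under the TPM and median ratio scalings and with the replicate number as a block. After Si-FIBP#2 it passed as lower under the median ratio scaling. The main TRIM25 transcript, ENST00000316881 (74.7% of the gene's FPKM in Scramble), went from 21.9 to 16.9 and 16.8 FPKM on average. An assembled transcript went the other way, from 3.49 to 3.62 and 4.78 FPKM. TRIM22 was at most 1.12 FPKM.

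DTX3L, PARP9 and PARP14 all rose with both siRNAs, as did 21.8% of all genes tested. DTX3L, a ubiquitin ligase, and PARP9, an ADP-ribosyltransferase relative, form a complex, and PARP14 is another ADP-ribosyltransferase of the same chromosome 3 region. DTX3L was at 3.93, 3.98 and 4.17 FPKM in Scramble samples, 5.23, 5.10 and 5.75 FPKM after Si-FIBP#1 and 7.0, 5.69 and 6.47 FPKM after Si-FIBP#2. No depleted sample reached down to the Scramble range, and the log2 change was 0.34 ± 0.09 (SE, adjusted p = 0.0126) after Si-FIBP#1 and 0.55 ± 0.09 (SE, adjusted p = 0.000869) after Si-FIBP#2. PARP14 was at 7.82, 6.84 and 7.75 FPKM in Scramble samples, 9.10, 8.47 and 9.76 FPKM after Si-FIBP#1 and 10.5, 10.1 and 10.4 FPKM after Si-FIBP#2. Its groups were also separate, with log2 changes of 0.26 ± 0.08 (SE, adjusted p = 0.023) and 0.42 ± 0.08 (SE, adjusted p = 0.00184). The first was lost under 5 of 17 alternatives (TPM and median ratio scaling, and without Scramble replicate 2 or Si-FIBP#1 replicate 1 or 3), with an adjusted p of up to 0.0905.

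PARP9 was at 4.0, 5.00 and 4.62 FPKM in Scramble samples, 5.23, 5.58 and 6.46 FPKM after Si-FIBP#1 and 6.07, 5.62 and 5.87 FPKM after Si-FIBP#2. Its depleted samples were above Scramble by a narrower margin, at 0.29 ± 0.10 (SE, adjusted p = 0.0401) and 0.31 ± 0.10 (SE, adjusted p = 0.0282). The rise after Si-FIBP#1 was lost under 11 of 17 alternatives and after Si-FIBP#2 under 6, not counting changes of sign. It rested on 1 assembled transcript, which went from 1.24 FPKM in Scramble to 2.83 FPKM after Si-FIBP#1 and 2.78 FPKM after Si-FIBP#2. With Ensembl transcripts alone the log2 change was -0.15 and -0.001. PARP9 and DTX3L start head to head, at the response element printed above, and share 340 bases on opposite strands, where fragments could be assigned to either gene.

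Of the remaining 8 interferon-induced genes 5 were tested, and they include LGALS3BP and IFI44, which had the largest log2 changes of the 33 genes. LGALS3BP, a secreted glycoprotein that binds galectins and whose promoter match is printed first above, was at 8.06, 6.82 and 7.72 FPKM in Scramble samples, 21.9, 20.1 and 20.1 FPKM after Si-FIBP#1 and 25.0, 18.4 and 24.1 FPKM after Si-FIBP#2. Every depleted sample was more than 2-fold above every Scramble sample. The mean was 2.75 times Scramble after Si-FIBP#1 and 2.98 times after Si-FIBP#2, at log2 changes of 1.35 ± 0.11 (SE, adjusted p = 1.27e-05) and 1.45 ± 0.11 (SE, adjusted p = 9.66e-06). The full-length transcript ENST00000262776 carried it, at 4.82 FPKM on average in Scramble, 15.9 FPKM after Si-FIBP#1 and 16.5 FPKM after Si-FIBP#2.

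IFI44, a cytoplasmic protein induced by type I interferon, was at 1.75, 1.97 and 1.47 FPKM in Scramble samples, 4.96, 5.05 and 5.73 FPKM after Si-FIBP#1 and 6.50, 4.04 and 5.65 FPKM after Si-FIBP#2. Again each depleted sample was at least 2-fold above each Scramble sample, on an estimated 30 to 160 fragments per library. The mean was 3.03 and 3.12 times that of Scramble, with log2 changes of 1.20 ± 0.15 (SE, adjusted p = 0.000152) and 1.21 ± 0.15 (SE, adjusted p = 0.000146). Its neighbour IFI44L, which lies 3650 bases away, stayed at or below 0.59 FPKM.

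IFI6, a mitochondrial and endoplasmic reticulum protein, was at 23.2, 17.9 and 19.9 FPKM in Scramble samples, 25.5, 27.2 and 29.9 FPKM after Si-FIBP#1 and 24.6, 24.3 and 19.6 FPKM after Si-FIBP#2. It rose after Si-FIBP#1 (0.42 ± 0.11 (SE, adjusted p = 0.0121)), and after Si-FIBP#2 the groups overlapped (0.16 ± 0.11 (SE, adjusted p = 0.267)). IFI35, a partner of the signalling protein NMI, went from 12.1 ± 0.95 FPKM in Scramble to 16.1 ± 0.29 FPKM after Si-FIBP#1 and 14.1 ± 0.99 FPKM after Si-FIBP#2, at 0.39 ± 0.08 (SE, adjusted p = 0.00236) and 0.20 ± 0.08 (SE, adjusted p = 0.0482). The second was lost under 11 of 17 alternatives. SP100, a nuclear body protein, was at 19.6 ± 0.69, 19.2 ± 2.48 and 18.6 ± 1.72 FPKM in the 3 groups and did not pass, with 95% intervals of -0.25 to 0.18 and -0.29 to 0.14. IFI27 and XAF1 were too low to test.

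The siRNAs were also compared directly. Of the 33 genes, UBE2L6 and IFITM3 were lower after Si-FIBP#2 than after Si-FIBP#1 (6.06% of the 33, close to the 5.8% of all genes tested), and 0 were higher by limma at an adjusted p below 0.05 (beside 9.58%). At an unadjusted p below 0.05, 4 were higher and 6 lower, and the share of all genes at that threshold was not computed. None exceeded 2-fold, where 0.267% of all genes were higher and 0.294% lower. Under the TPM scaling ADAR passed as higher. For LGALS3BP the 95% interval of the difference between the siRNAs was -0.15 to 0.35, for IFI44 -0.31 to 0.35 and for IRF9 -0.23 to 0.54, which are the differences these samples leave possible. For IFIT2, HERC5, IFI6 and USP18, which passed after Si-FIBP#1 only, the difference between the siRNAs did not pass (adjusted p = 0.293, 0.161, 0.155 and 0.234).

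The wider pathway was examined with 4 further gene lists. Of 21 interferon genes, 12 were listed at 0 in all 9 samples, and all but IFNE stayed at or below 0.16 FPKM. IFNE, an epithelial type I interferon, was at 1.01, 0.66 and 0.56 FPKM in Scramble samples, 1.53, 1.1 and 1.28 FPKM after Si-FIBP#1 and 1.46, 1.18 and 2.33 FPKM after Si-FIBP#2. The depleted samples were above Scramble by a small margin, at log2 differences of 0.41 and 0.59, on an estimated 14 to 57 fragments per library. It had 1 Scramble sample at 1 FPKM and met the filter only through the depleted samples, so these are given as a description with no test. Thus 2.33 FPKM was the highest value of any interferon gene in any sample.

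Of 13 receptors and signal transducers 10 were tested, and 4 were higher and 2 lower after Si-FIBP#1 and 5 higher and 1 lower after Si-FIBP#2, with a median log2 change of 0.06 and 0.26. The shares were 40% higher and 20% lower after Si-FIBP#1 (27.8% and 19.9% of all genes) and 50% and 10% after Si-FIBP#2 (31.1% and 17.7% of all genes), and the medians of all genes were 0.07 and 0.11. IL10RB, a receptor chain shared by interferon lambda and interleukin 10, rose from 16.4 ± 1.56 FPKM to 32.6 ± 0.52 and 26.1 ± 1.26 FPKM (0.96 ± 0.07 (SE, adjusted p = 8.31e-06) and 0.65 ± 0.07 (SE, adjusted p = 9.84e-05)), and IFNGR1, the ligand-binding chain of the interferon gamma receptor, rose from 23.2 ± 0.98 to 39.3 ± 2.83 and 37.6 ± 4.73 FPKM (0.73 ± 0.09 (SE, adjusted p = 0.000146) and 0.67 ± 0.09 (SE, adjusted p = 0.000265)). SOCS3, a feedback inhibitor of cytokine signalling and a known STAT3 target, fell from 8.38 ± 0.17 to 4.46 ± 0.65 and 4.23 ± 0.81 FPKM (-0.79 ± 0.13 (SE, adjusted p = 0.000775) and -0.86 ± 0.13 (SE, adjusted p = 0.00047)). STAT2 passed after Si-FIBP#2 (0.40 ± 0.09 (SE, adjusted p = 0.00566)) and differed between the siRNAs by 0.39 ± 0.09 (SE, adjusted p = 0.0199). Between the siRNAs, IL10RB was lower after Si-FIBP#2 (-0.31 ± 0.07 (SE, adjusted p = 0.0211)) and IFNGR2, the second chain of the interferon gamma receptor, higher (0.19 ± 0.05 (SE, adjusted p = 0.0345)).

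Of 20 adaptors and kinases of nucleic acid sensing 14 were tested, with 3 higher and 4 lower after Si-FIBP#1, and 2 higher and 2 lower after Si-FIBP#2, and a median log2 change of 0.02 and -0.05, below the 0.07 and 0.11 of all genes. The shares were 21.4% higher and 28.6% lower after Si-FIBP#1 (all genes 27.8% and 19.9%) and 14.3% for each direction after Si-FIBP#2 (all genes 31.1% and 17.7%). CGAS, the sensor of cytoplasmic DNA, fell from 16.1 ± 1.31 FPKM to 9.17 ± 0.43 and 9.08 ± 0.37 FPKM (-0.75 ± 0.08 (SE, adjusted p = 4.56e-05) and -0.76 ± 0.08 (SE, adjusted p = 4.38e-05)). TBK1, the kinase of IRF3, rose from 22.1 ± 0.88 to 30.4 ± 0.32 and 31.3 ± 2.37 FPKM (0.44 ± 0.06 (SE, adjusted p = 0.000399) and 0.48 ± 0.06 (SE, adjusted p = 0.000237)). PRKRA, a double-stranded RNA-binding activator of PKR, was at 29.6 ± 1.14, 33.9 ± 1.92 and 37.7 ± 0.96 FPKM in the 3 groups (0.19 ± 0.06 (SE, adjusted p = 0.0233) and 0.34 ± 0.06 (SE, adjusted p = 0.00114)). TRAF3, an adaptor ligase of this pathway, fell with both siRNAs but more after Si-FIBP#1 (-0.95 ± 0.10 (SE, adjusted p = 5.84e-05) and -0.30 ± 0.10 (SE, adjusted p = 0.0335)), and the siRNAs differed by 0.65 ± 0.10 (SE, adjusted p = 0.00328). MAVS, the mitochondrial adaptor of RIG-I and MDA5, was lower after Si-FIBP#2 than after Si-FIBP#1 by -0.43 ± 0.07 (SE, adjusted p = 0.00423), at 11.4 ± 0.56, 15.2 ± 0.62 and 11.1 ± 0.63 FPKM in the 3 groups.

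Of 32 further interferon-stimulated genes 19 were tested, with 9 higher and 2 lower after Si-FIBP#1 and 11 higher and 2 lower after Si-FIBP#2, and a median log2 change of 0.36 and 0.55, beside 0.07 and 0.11 for all genes. IFI16 and PARP10, which passed as higher after Si-FIBP#2, had 1 Scramble sample at 1 FPKM and met the filter only through depleted samples. Among the 17 genes with at least 2 Scramble samples at 1 FPKM, 9 were higher and 2 lower with each siRNA (52.9% and 11.8%), against 26.9% and 21.6% of all 13776 such genes after Si-FIBP#1 and 30% and 19.3% after Si-FIBP#2, and the median was 0.415 and 0.425, against 0.04 and 0.08. IFI30, a lysosomal thiol reductase, rose from 1.83 ± 0.77 FPKM to 7.02 ± 1.23 and 5.87 ± 1.07 FPKM (1.53 ± 0.21 (SE, adjusted p = 0.000257) and 1.30 ± 0.21 (SE, adjusted p = 0.000648)), and SHFL, an inhibitor of ribosomal frameshifting, from 5.89 ± 0.29 to 12.3 ± 1.89 and 11.2 ± 0.96 FPKM (0.94 ± 0.11 (SE, adjusted p = 0.000116) and 0.83 ± 0.11 (SE, adjusted p = 0.000246)). RNF213, a large ubiquitin ligase, rose by 0.75 ± 0.08 (SE, adjusted p = 7.88e-05) and 0.68 ± 0.08 (SE, adjusted p = 0.000152), and HELZ2, a helicase coactivator, by 0.51 ± 0.12 (SE, adjusted p = 0.00618) and 0.86 ± 0.12 (SE, adjusted p = 0.00032). TRIM14, a partner of MAVS, fell from 13.1 ± 0.72 to 8.87 ± 0.57 and 6.76 ± 0.60 FPKM (-0.51 ± 0.08 (SE, adjusted p = 0.000829) and -0.86 ± 0.08 (SE, adjusted p = 3.73e-05)). Between the siRNAs, the membrane protein gene LY6E (-0.45 ± 0.07 (SE, adjusted p = 0.00455)) and TRIM14 (-0.35 ± 0.08 (SE, adjusted p = 0.022)) were lower and the Schlafen family gene SLFN5 higher (0.44 ± 0.10 (SE, adjusted p = 0.0214)) after Si-FIBP#2.

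The promoter sequences were set beside these calls. The response element core was found in 10 of the 14 genes that rose with both siRNAs, in 3 of the 4 readable genes that rose after Si-FIBP#1 only, in OAS3, in 5 of the 9 readable genes that passed with neither, and in 6 of the 10 readable genes too low to test. The first 10 include IFIT1, which met the filter only with its depleted samples. They also count DTX3L and PARP9 separately, though both share 1 element. The element was thus present in genes that rose, in a gene that fell and in genes that stayed near 0. IRF9, UBE2L6, ADAR, HERC6 and IFI35 moved without a match in their windows. IRF9 and IFI35 hold instead a match to the gamma-activated site TTCNNNGAA, which 10 of the 38 genes have (26.3%, against 9.38% of all genes). A missing match says only that these letters are not within the window.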

How the data were processed

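Per the labels, poly(A) RNA from 9 samples of H1299 cells was sequenced from both ends. The authors aligned and quantified the reads with HISAT2 and StringTie, per the submitters' processing notes, and deposited 1 table per sample with FPKM of 244443 Ensembl and assembled transcripts, to 2 decimals. The unit was inferred from the values, and the genome build and annotation release are not given in the sources used here. Groups and replicates were taken from the sample titles. FPKM were summed per gene. Genes at 1 FPKM or more in at least 3 samples (14985) were tested on log2(FPKM + 1) with limma 3.58.1 in R 4.3.3 (1 linear model for all 9 samples, empirical Bayes with a trend), with Benjamini-Hochberg adjustment over all of them and thresholds of 0.05 and 2-fold. No count test was run. A simulation for Si-FIBP#1 against Scramble counted only calls past both thresholds. Of 200 genes moved by a log2 change of 1.5, 197 were recovered among 14151, with 1 false call. It does not cover calls by adjusted p alone at smaller changes, which most calls reported here are. Fragment numbers are estimates: in 8028 single-transcript genes (800 to 2000 nt) each fragment adds a fixed step of FPKM, which gives the depth. FPKM hold no counts, so errors are the spread between samples.

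The genes, the pathway lists and the tests were chosen with earlier results of these data known. Values in every sample are given for FIBP, the 3 genes most abundant in Scramble, and the genes past an adjusted p of 0.05 (the 12 with the largest change per comparison), and for OASL, TLR3 and IFNE, chosen after their values were seen. Of the pathway lists, at most 3 passing genes per list and comparison are named, beside the genes given as context. Some genes of the pathway and marker lists are not reported here and are left out of the list counts. Gene positions are from GENCODE release 29 (GRCh38), matched by Ensembl identifier (48 of 48). Promoter windows are from RefSeq (GRCh38.p14), where 38 of 48 genes were found by symbol. Alternatives were TPM and median ratio scaling, a pseudocount of 0.1, the filter dropped or raised to 5 FPKM, a fit of only the groups compared, Ensembl transcripts only, a block for the replicate number, and fits without 1 of the samples in turn. Python 3.11.15, numpy 2.4.6, pandas 2.3.3 and matplotlib 3.10.9 were used.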

Additional observations from a re-analysis of the deposited data

Results flagged for a closer look

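For 2 of the 33 genes tested, the response to depletion differed between the siRNAs by a direct test (limma, Benjamini-Hochberg adjustment over 14985 genes). Both were lower after Si-FIBP#2, which is 6.06% of the 33 beside 5.8% of all genes tested, and 0% were higher beside 9.58%. UBE2L6 was lower after Si-FIBP#2 than after Si-FIBP#1 (log2 difference -0.828, SE 0.13, adjusted p = 0.00404), at 8.61 ± 1.72 against 15.9 ± 1.92 FPKM (SD, n = 3), and all 3 Si-FIBP#2 samples lay below all 3 Si-FIBP#1 samples. IFITM3 differed by -0.593 (SE 0.08, adjusted p = 0.00155), at 160.4 ± 2.36 against 243 ± 25.2 FPKM, again with no overlap, and relative to Scramble it rose after Si-FIBP#1 and lay below all Scramble samples without passing after Si-FIBP#2 (adjusted p = 0.0786, and past the threshold under the median ratio scaling and with the replicate number as a block). Both differences kept their direction and passed in all 17 alternatives.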

How the results depend on the processing

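Of the genes that passed, 14 of 21 after Si-FIBP#1, 10 of 15 after Si-FIBP#2 and 2 of 2 between the siRNAs passed in every alternative that tested them, which was all 17 for 13, 9 and 2 genes and 16 for IFIT2 and SAMD9, absent under the 5 FPKM filter. The FIBP fall, from -3.62 to -3.26 and from -3.46 to -3.26 without any 1 sample, and the counts over 2-fold, 3 to 3 and 2 to 3, stayed close to the reported values. After Si-FIBP#1 the median log2 change of 0.286 became 0.22 (median ratio), 0.336 (pseudocount 0.1), 0.249 (no filter) and 0.255 (Ensembl transcripts only), and the count lower became 1 with a filter of 5 FPKM. After Si-FIBP#2 the median of 0.227 became 0.128, 0.268, 0.187 and 0.189 in the same order and 0.183 with the filter of 5 FPKM. The median ratio scaling left 9 genes higher and 4 lower, and the fit of only the groups compared gave 2 lower. Between the siRNAs 1 gene was higher under TPM, and the median of 0.017 became -0.016 (median ratio) and -0.024 (no filter). With Ensembl transcripts only PARP9 changed sign, to -0.153 after Si-FIBP#1 and -0.001 after Si-FIBP#2, because its assembled transcript was left out. The cause of the other shifts was not tested. Among the alternatives, shares of all genes were computed only for the median ratio scaling, so the other counts have no background beside them.

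Without any 1 sample, the counts after Si-FIBP#1 ranged over 14 to 20 higher and 1 to 3 lower (1 without Scramble replicate 2, 3 without Scramble replicate 3) and the median over 0.237 to 0.303. After Si-FIBP#2 they ranged over 9 to 16 higher (9 without Si-FIBP#2 replicate 3), 1 to 2 lower and medians of 0.155 to 0.257, and between the siRNAs over 0 to 0 higher, 2 to 3 lower and -0.025 to 0.049. Same-numbered samples correlated at -0.057 to 0.103 in their deviations from the group means (1 of 9 pairs over 0.1). Samples of different groups and numbers correlated at -0.142 to 0.049 (0 of 18 pairs over 0.1). Low correlations over all genes cannot decide whether the replicate numbers mark a shared batch. With the replicate number as a block, 17 genes were higher and 3 lower after Si-FIBP#1, 13 higher and 2 lower after Si-FIBP#2, and 0 higher and 2 lower between the siRNAs. The shares of all genes were not computed for this fit or for those without 1 sample. IFIT1 and PARP9 were then lost and TRIM25 passed as lower after Si-FIBP#1, and TRIM21 was lost and IFITM3 passed as lower after Si-FIBP#2.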
